A study of Mus musculus with 6 samples.

Results

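The genes described here bind fatty acids in the cytosol (Fabp1, Fabp3, Fabp4, Fabp5, Fabp7), take them up (Cd36), activate them (Acsl1) or pass them to mitochondria for oxidation (Cpt1a, Cpt1c). They were chosen by gene symbol, and all 9 were found among the 35415 genes of the deposited tables. Lateral septum (LS) tissue came from wild-type female C57BL/6 mice, obtained at 8 weeks of age and kept on a control chow diet or on the same maintenance feed with olanzapine at 50 mg/kg for 12 weeks. LS tissue of 3 mice was pooled before RNA extraction for each library, with 3 pools per group, and RNA-seq measured the transcripts of each pool. The study asked how the drug, an antipsychotic with metabolic side effects, acts on gene expression in this region, which sends inhibitory projections to the hypothalamus. The spread given below is between pools and not between single mice, and the labels do not say how mice were assigned to pools.

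Long-chain fatty acids are poorly soluble in water, and fatty acid-binding proteins (FABPs) carry them through the cytosol to membranes, enzymes and nuclear receptors. An acyl-CoA synthetase joins the fatty acid to coenzyme A, carnitine palmitoyltransferase then moves the acyl group onto carnitine at the outer mitochondrial membrane, and beta-oxidation shortens the chain inside. The adult brain draws little of its energy from this route, and fatty acid oxidation there is mainly a property of astrocytes. FABPs are named for the tissues in which they were found: Fabp1 for liver, Fabp3 for heart, Fabp4 for adipocytes, Fabp5 for epidermis and Fabp7 for brain.

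Of the 9 genes, 8 of them tested, Fabp1 alone passed the test and rose in the olanzapine group, by 9.62-fold (95% interval 3.96 to 23.4, n = 3 pools per group). Fabp1 passed the count filter through its olanzapine pools, so its call is not independent of that filter. The call was lost without control pool 2 or 3 and without olanzapine pool 2 or 3. The abundant genes of the set, Fabp3, Fabp5, Fabp7 and Cpt1c, had estimated changes of 10.5% to 17.1%, and none of them passed. Cd36 was 0.458-fold as high in the olanzapine group, with an interval of 0.183 to 1.14 that includes no change. Acsl1 and Cpt1a were 0.955-fold and 0.821-fold as high and did not pass. A call needed an adjusted p under 0.05 (Benjamini-Hochberg, over the 17255 tested genes) and a fold change above 2 or below 0.5, with edgeR's quasi-likelihood F test. By this rule 0.95% of the tested genes were called on the higher side and 0.058% on the lower. Of the 9 members 8 were tested, since Fabp4 did not reach the count filter. Their median log2 fold change was 0.15, beside 0.0039 over all tested genes, and 2 of the 8 had an unadjusted p under 0.05, beside 3035 of the 17255. Log2 fold changes are olanzapine over control throughout.

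**Figure D1:**
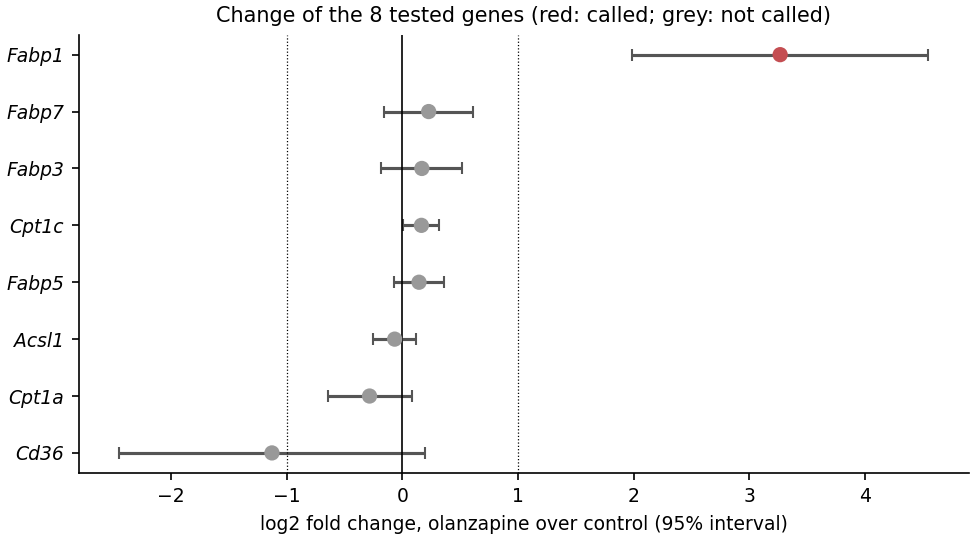
Log2 fold change (x axis) of the 8 tested genes, olanzapine over control, with 95% intervals from edgeR, and dotted lines at 1 and -1. Fabp1 lies at 3.27 with an interval from 1.99 to 4.55, Cd36 at -1.13 with an interval from -2.45 to 0.19, and the other 6 lie between -0.28 and 0.23.

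Total counts on genes ran from 38208153 to 39868872 over the 6 libraries. The choroid plexus marker genes, led by Ttr, summed to 135, 2740 and 7571 CPM (counts scaled to library size) in control pools 1 to 3, against 1184, 4768 and 88.3 CPM under olanzapine, so the pools of each group differed widely in them, and none of the 8 was called. Hepatocyte marker genes are given beside Fabp1. The genes listed for septal neurons included Gad1, Gad2 and Slc32a1, which GABAergic neurons of other regions also express. The list summed to 2266 to 2895 CPM in the control group, against 1907 to 2504 CPM in the olanzapine group. By edgeR or DESeq2 0 of its 8 genes were called (3 at an unadjusted p under 0.05, beside 17.6% of all tested genes in edgeR).

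Per unit of transcript length, the members spanned from abundant to barely detected. FPKM (fragments scaled to transcript length and library size, as deposited) averaged over the 6 pools was 72.7 for Fabp3, 69.5 for Fabp5, 35.1 for Cpt1c, 30.5 for Fabp7, 9.16 for Cpt1a, 7.17 for Acsl1, 2.95 for Fabp1, 0.202 for Cd36 and 0.053 for Fabp4. Some neighbours in this order could not be separated: Fabp3 was above Fabp5 in 3 of 6 pools, Cpt1c above Fabp7 in 4 of 6, Cpt1a above Acsl1 in 5 of 6 and Cd36 above Fabp4 in 5 of 6. Fabp5 was above Cpt1c, Fabp7 above Cpt1a, and Acsl1 above Fabp1 in all 6 pools. Fabp1 was above Cd36 in 5 of 6 pools, the exception being control pool 1, where Fabp1 was at 0.098 and Cd36 at 0.167 FPKM.

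**Figure D2:**
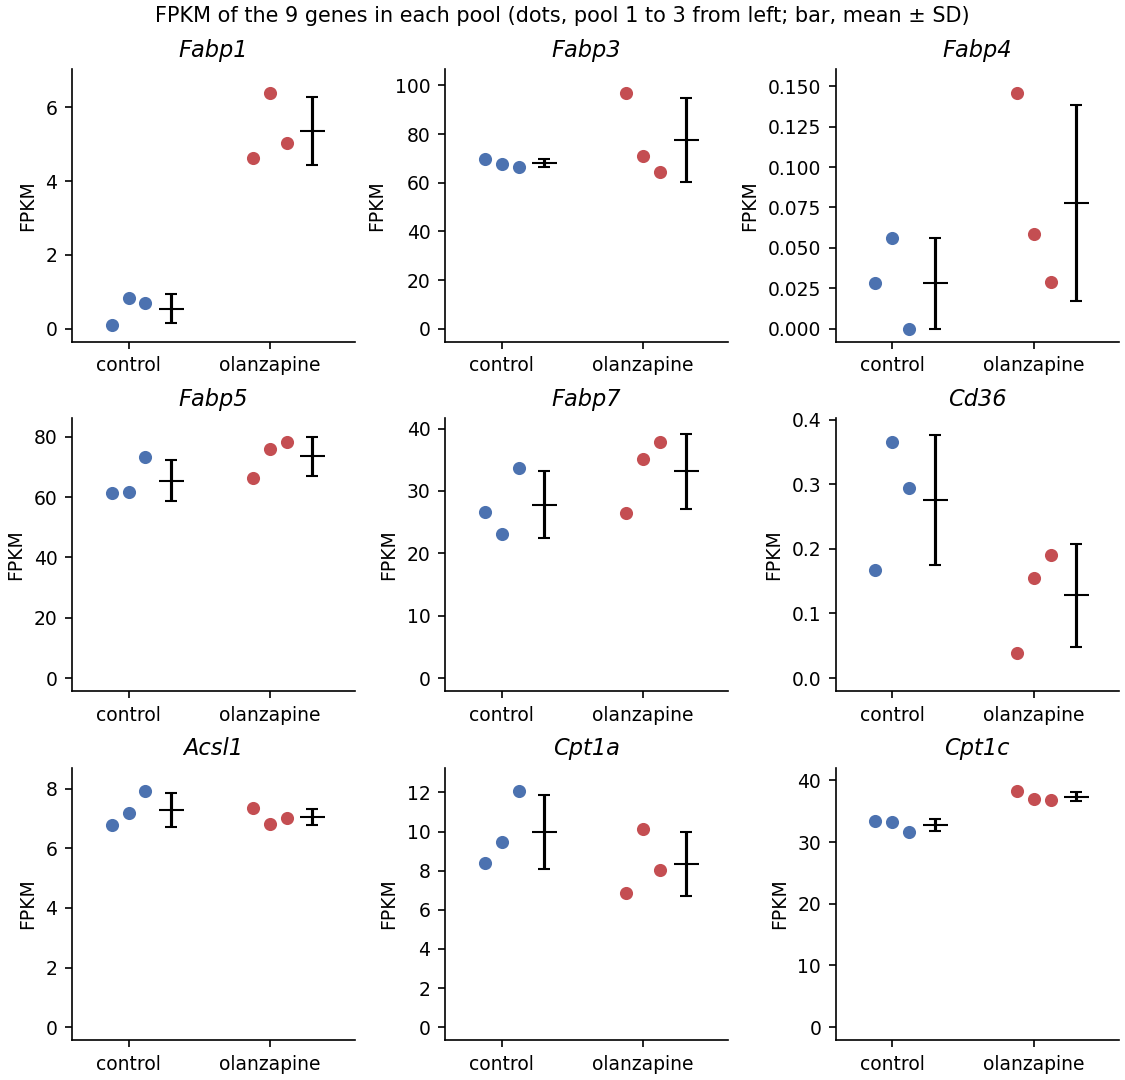
FPKM (y axis, linear, a scale of its own for each gene) of the 9 genes in each pool. Dots are pools 1 to 3 of each group from left to right, and the bars beside them are the mean ± SD (n = 3). The olanzapine pools lie above all control pools for Fabp1 and Cpt1c, and the groups overlap for the other 7 genes.

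Fabp1 encodes liver-type FABP, the main fatty acid carrier of hepatocytes and an abundant protein of enterocytes. The gene lies on chromosome 6 at 71199827 to 71205023 on the plus strand of GRCm38, the genome named mm10 in the submitters' processing notes. Its counts were 2, 17 and 14 in control pools 1 to 3, against 91, 125 and 100 under olanzapine. Every olanzapine pool was above every control pool, and control pool 1 held almost none of its reads. Normalized counts were 10.9 ± 7.83 in the control group, against 106 ± 15.6 under olanzapine (SD, n = 3 each). Its log2 fold change was 3.27 ± 0.56 (SE, adjusted p = 0.0263, edgeR). Fabp1 passed the count filter through its olanzapine pools, so its call is not independent of that filter. Without a count filter its adjusted p was 0.00916 (edgeR). Of the fits that left out a pool, the call was lost without control pool 2 (adjusted p = 0.0881), control pool 3 (0.0829), olanzapine pool 2 (0.0864) or olanzapine pool 3 (0.0895). The 6 fits that left out a pool gave log2 fold changes from 2.78 to 3.72.

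The stretch before the Fabp1 start is shown beside that of Fabp7, the brain-type gene, as the called FABP gene and the FABP gene most tied to brain. Sequences are RefSeq promoters of GRCm38.p6, and 7 of the 9 members matched an entry. Each is given 5′ to 3′ on the strand of the gene up to the first base of the gene in either annotation used, and capitals mark AGGTCA on either strand, the hexamer bound by nuclear receptors such as the PPARs and HNF4A.
Fabp1, chr6:71199629-71199826, plus strand: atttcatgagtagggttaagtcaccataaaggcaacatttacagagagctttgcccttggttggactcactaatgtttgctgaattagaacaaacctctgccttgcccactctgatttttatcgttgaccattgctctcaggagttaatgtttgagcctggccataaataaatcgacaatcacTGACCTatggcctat
Fabp7, chr10:57784673-57784880, plus strand: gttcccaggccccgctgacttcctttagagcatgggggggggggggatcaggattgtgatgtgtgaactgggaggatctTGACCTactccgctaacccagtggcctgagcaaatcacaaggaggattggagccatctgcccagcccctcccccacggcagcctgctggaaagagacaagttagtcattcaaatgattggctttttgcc
In the 250 bases before the RefSeq start, AGGTCA occurred on either strand at 67 and 9 bases before the start of Fabp1 and at 171 bases before that of Fabp7, with the match at 9 bases lying past the stretch shown. It was found in 5 of the 7 members with an entry (Fabp1, Fabp7, Cd36, Cpt1a and Cpt1c). Counted by promoter this was 5 of 8, beside 14.0% of all 32851 RefSeq promoters. The 250 bases of Cd36 and of Cpt1a lie wholly within the gene as GENCODE annotates it. GTTAAT, a core of the site of the liver factor HNF1 (either strand), occurred at 107 bases before the start of Fabp1, in none of the other 6 members with an entry and in 6.43% of all promoters. TATAAA (gene strand) occurred at 30 bases before the start of Fabp1, again in none of the other 6, and in 7.59% of all promoters. It too lies past the stretch shown, within the gene as GENCODE annotates it. None of these matches overlapped in Fabp1. The matches describe letters only, and no binding was measured.

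Hepatocyte markers moved with Fabp1. Without Ttr, which choroid plexus also makes and which was taken out after its values were seen, 7 of the other 14 markers reached the count minimum of the filter in every control pool, and all 7 were called higher, where 0.95% of all tested genes were. A further 6, Hnf4a, Apob, Serpinc1, Cps1, Tat and Arg1, fell under that minimum in at least 1 control pool and passed the filter through their olanzapine pools, so their calls are not independent of it. G6pc, with 0, 1 and 2 counts in the control pools, against 8, 2 and 1 under olanzapine, was too low to be tested. The summed level of the 14 was 14.0 to 23.6 CPM in the control pools, against 241 to 302 CPM under olanzapine. Alb, serum albumin, had 460, 507 and 268 counts in the control pools, against 5049, 6632 and 5345 under olanzapine. Hnf4a, a hepatocyte transcription factor, had 1 count in each control pool and 32, 34 and 35 in the olanzapine pools, a ratio of 34.2 (exact counting interval 11.4 to 168). The called markers of both kinds also included Apoa1, Apoa2, Apob, Fgb, Ahsg, Serpinc1, Cps1, Tat, Cyp2e1 and Arg1, with log2 fold changes of 2.46 to 5.28. DESeq2 also called 13 of these markers, and fits without 1 pool called 11 to 13. The part of this signal in the rise of Fabp1 was not tested, and since the marker level did not overlap between the groups, it and the diet cannot be told apart.

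The proportion of Fabp1 to Alb was even in the olanzapine pools and uneven in the control pools. In the olanzapine pools there were 1.80, 1.88 and 1.87 Fabp1 counts per 100 Alb counts. In the control pools there were 0.435, 3.35 and 5.22. The olanzapine pools thus lay inside the range of the control pools, which rested on few Fabp1 reads. Ttr followed neither gene: it had 1398, 95227 and 269659 counts in the control pools, against 38825, 167154 and 808 under olanzapine. With the choroid plexus score as a covariate, a fit added after the data were seen, the log2 fold change of Fabp1 was 3.52 (adjusted p = 0.0240, edgeR).

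**Figure D3:**
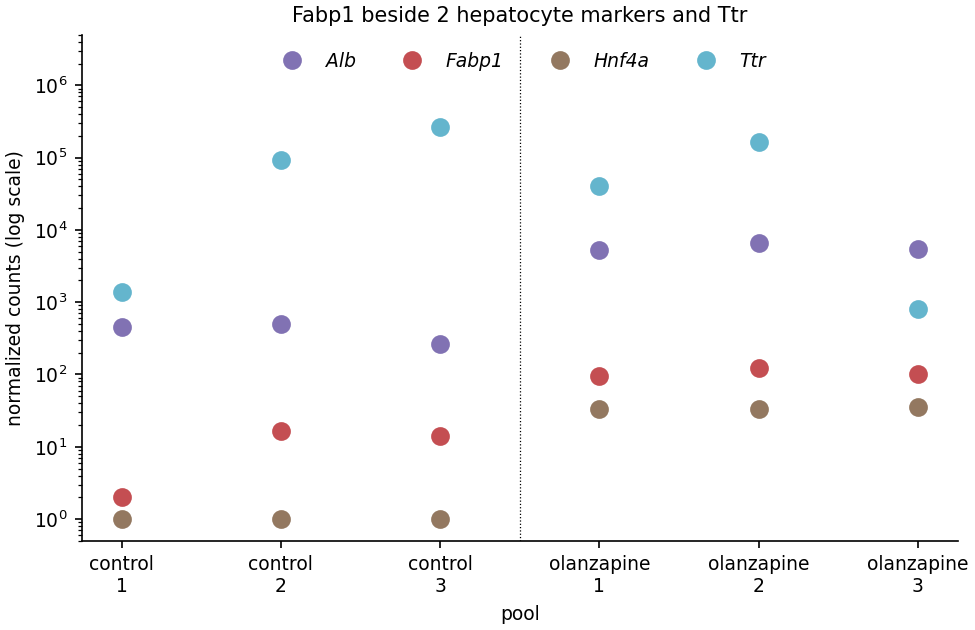
Normalized counts (y axis, log scale) of Fabp1, the hepatocyte markers Alb and Hnf4a, and Ttr in each of the 6 pools (x axis). Fabp1, Alb and Hnf4a lie above their control values in each of the 3 olanzapine pools, while Ttr spans 1397 to 267330 normalized counts within the control group alone.

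Enterocytes are the other main site of Fabp1, and their markers were near 0. Fabp6, Cdx1 and Cdx2 had 0 counts in all 6 pools, Vil1 had 18 to 30 counts in the control pools, against 11 to 29 under olanzapine, and the summed level of the 8 markers was 0.935 to 1.80 CPM in the control group, against 0.910 to 1.48 CPM. Fabp2, intestinal-type FABP, had 0 counts in the control pools, against 3, 5 and 6 under olanzapine. It was too low to be tested. In rank of pattern, the 3 genes most like Fabp1 among 14278 genes with a mean of at least 50 counts were Gps2 (Pearson r = 0.999 over the 6 libraries, log2 CPM), Cyp2e1 (r = 0.995) and Slc25a3 (r = 0.995). Their log2 fold changes were 0.31, 2.74 and 0.13, so a like order of the pools did not mean a like size of change.

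Fabp3 encodes heart-type FABP, which neurons also express, and lies on chromosome 4 at 130308595 to 130315463. Its counts were 1892, 1830 and 1781 in the control pools, against 2533, 1848 and 1695 under olanzapine. The first olanzapine pool was the highest of the 6, and the other olanzapine pools lay within or below the control range. FPKM was 68.0 ± 1.68 in the control group, against 77.4 ± 17.2 under olanzapine (SD, n = 3 each). The log2 fold change of 0.17 ± 0.15 (SE) did not pass (adjusted p = 0.612, edgeR), and it was -0.046 without olanzapine pool 1. A processed pseudogene, Fabp3-ps1, matches a Fabp3 transcript at 99.25% identity over 402 bases, and genes on the other strand overlap the locus, so the count is uncertain to that degree.

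Fabp5 encodes epidermal-type FABP, present in neurons, glia and brain capillaries, and lies on chromosome 3 at 10012548 to 10016607. It had 2327, 2341 and 2758 counts in the control pools, against 2426, 2770 and 2892 under olanzapine. Control pool 3 lay among the olanzapine pools, so the groups overlapped. The estimated log2 fold change was 0.14 ± 0.09 (SE, adjusted p = 0.465, edgeR). Fabp5 has 3 processed pseudogenes with at least 95% identity over 150 bases or more, the longest match being 409 bases.

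Fabp7 encodes brain-type FABP of radial glia and astrocytes and lies on chromosome 10 at 57784881 to 57788450. It had 811, 700 and 1011 counts in the control pools, against 773, 1023 and 1118 under olanzapine. On the log2 scale the fold change was 0.23 ± 0.17 (SE, adjusted p = 0.528, edgeR), and the interval of the fold ran from 0.895 to 1.53. Fabp5 and Fabp7 placed the pools alike: for both, control pools 1 and 2 and olanzapine pool 1 were the lowest of the 6, and olanzapine pool 3 was the highest. None of the 9 astrocyte markers, among them Aqp4, Gfap and Aldh1l1, was called by edgeR or DESeq2. Their median log2 fold change was -0.20, 6 had lower estimates, 4 had an unadjusted p under 0.05 in edgeR (17.6% of all tested genes did), and in 3 the olanzapine pools were all below the control pools, as they were in 11% of all tested genes. The part of astrocytes in the Fabp7 values was not tested.

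Fabp4, the FABP of adipocytes, which is also made by macrophages and by endothelium of other tissues, was at the limit of detection. It lies on chromosome 3 at 10204088 to 10208576, and had 1, 2 and 0 counts in the control pools, against 5, 2 and 1 under olanzapine. The summed counts of 3 and 8 gave a ratio of 2.71 with an exact counting interval of 0.650 to 15.8. No difference was detectable at this depth. Of the 8 adipocyte markers, 5 were too low to be tested, among them Lep at 0 in all pools and Adipoq at no more than 5 counts in any, and 0 of the other 3 were called or had an unadjusted p under 0.05 (edgeR and DESeq2). Retn had 4 to 19 counts per pool and Adrb3 28 to 55. Adrb3, Pparg and Plin1 were chosen for mention after their values were seen. Pparg had 16, 25 and 18 counts in the control pools, against 85, 22 and 21 under olanzapine, so it was highest in olanzapine pool 1, as were Fabp4 and Plin1 (6 counts there and at most 1 in any other pool). The part of adipocytes in the Fabp4 counts was not tested. The summed level of the list had values of 1.79 to 2.39 CPM in the control group, against 1.87 to 3.93 CPM in the olanzapine group.

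Taking the 5 FABP genes as a family, Fabp3 and Fabp5 held most of the summed FPKM in every pool. Fabp1 made up 0.0621%, 0.544% and 0.398% of it in the control pools, against 2.38%, 3.38% and 2.72% under olanzapine. Fabp3 was 81.1 to 712 times as high as Fabp1 in FPKM in the control pools, against 11.1 to 20.96 times under olanzapine. By length-scaled level Fabp1 thus stayed well below Fabp3 in every pool.

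Cd36 encodes a scavenger receptor that takes up long-chain fatty acids in endothelium, macrophages and adipocytes, and lies on chromosome 5 at 17781690 to 17888801. Its counts were 27, 59 and 47 in the control pools, against 6, 24 and 30 under olanzapine. The groups overlapped, since olanzapine pool 3 was above control pool 1, and olanzapine pool 1 was the lowest of all. Normalized counts were 43.9 ± 15.8 (SD, n = 3) and 20.02 ± 12.4 (SD, n = 3). Its log2 fold change was -1.13 ± 0.57 (SE, adjusted p = 0.354, edgeR), which did not pass, and it was -0.70 without olanzapine pool 1.

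Markers of cells that use Cd36 were measured beside it. All 8 brain endothelium markers had lower estimates in the olanzapine group, and none was called by edgeR or DESeq2. An unadjusted p under 0.05 was found in 3 of them, beside 17.6% of all tested genes (edgeR). Without olanzapine pool 1, 1 of the 8 was called lower, as were 18 of all 17687 genes tested in that fit, and 7 of the 8 had an unadjusted p under 0.05. The share of all genes at that unadjusted level in this fit is not given here. Without any other pool 0 of the 8 were called, and 0 to 3 had an unadjusted p under 0.05. Their summed level was 315 to 369 CPM in the control pools, against 220 to 327 CPM under olanzapine. Cldn5 had 810, 709 and 548 counts in the control pools, against 732, 428 and 392 under olanzapine. Pecam1 ran from 603 to 729 counts in the control group, against 340 to 701, and Flt1 from 1832 to 2291, against 1008 to 1946. The endothelial sum was highest among olanzapine pools in pool 1, where Cd36 was lowest. Macrophage and microglia markers, among them Cx3cr1, P2ry12 and Tmem119, summed to 187 to 205 CPM in the control group, against 185 to 210 CPM in the olanzapine group, with 0 of 8 called and 1 at an unadjusted p under 0.05. The part of these cells in the Cd36 values was not tested, and in bulk tissue fewer cells of a type and less RNA per cell cannot be told apart.

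Acsl1 encodes a long-chain acyl-CoA synthetase of mitochondria and endoplasmic reticulum, and lies on chromosome 8 at 46471037 to 46536051. Its counts were 1898, 2005 and 2193 in the control pools, against 1984, 1829 and 1916 under olanzapine. The groups overlapped, and the log2 fold change was -0.07 ± 0.08 (SE, adjusted p = 0.726, edgeR). The interval of the fold, 0.838 to 1.09, leaves out a 2-fold change in either direction. Gm45244, annotated on the other strand, overlaps the gene and could share its reads.

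Cpt1a encodes the carnitine palmitoyltransferase that limits the entry of long-chain fatty acids into mitochondria and is inhibited by malonyl-CoA. The gene lies on chromosome 19 at 3322334 to 3385733. Its counts were 1684, 1902 and 2397 in the control pools, against 1334, 1948 and 1569 under olanzapine. Olanzapine pools 1 and 3 were below all control pools, and pool 2 was within their range. The estimated log2 fold change was -0.28 ± 0.16 (SE, adjusted p = 0.394, edgeR).

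Cpt1c encodes the neuronal form, which sits in the endoplasmic reticulum and has little transferase activity. The gene lies on chromosome 7 at 44959372 to 44974851 on the minus strand, and an antisense gene overlaps it. Its counts were 4077, 4035 and 3814 in the control pools, against 4488, 4308 and 4366 under olanzapine. All 3 olanzapine pools were above all 3 control pools, as was the case in either direction for 24.3% of all tested genes. Normalized counts were 3946 ± 149.8 and 4423 ± 187 (SD, n = 3 each), a fold of 1.12 (95% interval 1.01 to 1.25). The log2 fold change of 0.16 ± 0.07 (SE) had an unadjusted p of 0.0401 and did not pass over all genes (adjusted p = 0.255, edgeR).

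The forms of Cpt1 differed in level in every pool. Cpt1c was 3.998, 3.50 and 2.63 times as high as Cpt1a in FPKM in the control pools, against 5.56, 3.65 and 4.59 times under olanzapine. Olanzapine pool 2 lay within the control range, so the groups overlapped in this ratio. Cpt1b, the muscle form, had 0, 1 and 0 counts in the control pools, against 5, 6 and 1 under olanzapine, a ratio of 12.2 (exact counting interval 1.80 to 521), and was not tested.

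The other genes of the pathway were read from lists of binding, uptake, activation, shuttle, oxidation, ketone body and lipid release genes. Without the members these held 117 genes, of which 116 were found by symbol and 101 were tested. By the call rule 1 of the 101 was higher (Acsm1) and 0 were lower, beside the 0.95% and 0.058% of all tested genes. By adjusted p alone 2 were higher and 1 was lower, beside 1.83% and 0.493% of all tested genes. The median log2 fold change was 0.023, and 10 had an unadjusted p under 0.05, beside 17.6% of all tested genes (edgeR). In 9 genes the olanzapine pools were all above the control pools and in 7 all below, beside 24.3% of all tested genes in either direction.

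Acsm1 encodes a medium-chain acyl-CoA synthetase of liver and kidney mitochondria. It had 0, 1 and 0 counts in the control pools, against 12, 12 and 17 under olanzapine. The summed counts gave a ratio of 41.6 (exact counting interval 7.06 to 1683), with an adjusted p of 0.0373 (edgeR). Acsm1 passed the count filter through its olanzapine pools alone, and without a count filter the adjusted p was 0.0561, and with a score of the choroid plexus markers as a covariate, a fit added after the data were seen, it was 0.0554. With the filter and no covariate it was between 0.0555 and 0.149 when any 1 of the 6 pools was left out.

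Slc16a1 encodes the monocarboxylate transporter MCT1, which carries lactate and ketone bodies across capillary endothelium and glia. It had 1524, 1401 and 1608 counts in the control pools, against 1123, 1108 and 1012 under olanzapine. All olanzapine pools were below all control pools, and the log2 fold change was -0.46 ± 0.09 (SE, adjusted p = 0.0380, edgeR). The adjusted p was 0.0307 without olanzapine pool 1 and between 0.0882 and 0.144 without any other pool. It was also above 0.05 in all 3 limma fits (0.0654 to 0.1) and with the choroid plexus score as a covariate (0.0565). In DESeq2 it was 0.00181. Endothelial markers, which had lower estimates as well, are given beside Cd36, and their part was not tested.

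Pnpla3 encodes a lipid droplet acyl hydrolase best known from liver and fat. It had 238, 216 and 220 counts in the control pools, against 385, 367 and 341 under olanzapine. The groups did not overlap, and the log2 fold change was 0.72 ± 0.13 (SE, adjusted p = 0.0374, edgeR), under the 2-fold limit. The adjusted p lay between 0.0546 and 0.151 when any 1 pool was left out, and was 0.0942 in limma without a filter and 0.0556 with the choroid plexus score as a covariate. In DESeq2 it was 0.000977, and in the limma fits with a filter 0.0417 and 0.0449.

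**Figure D4:**
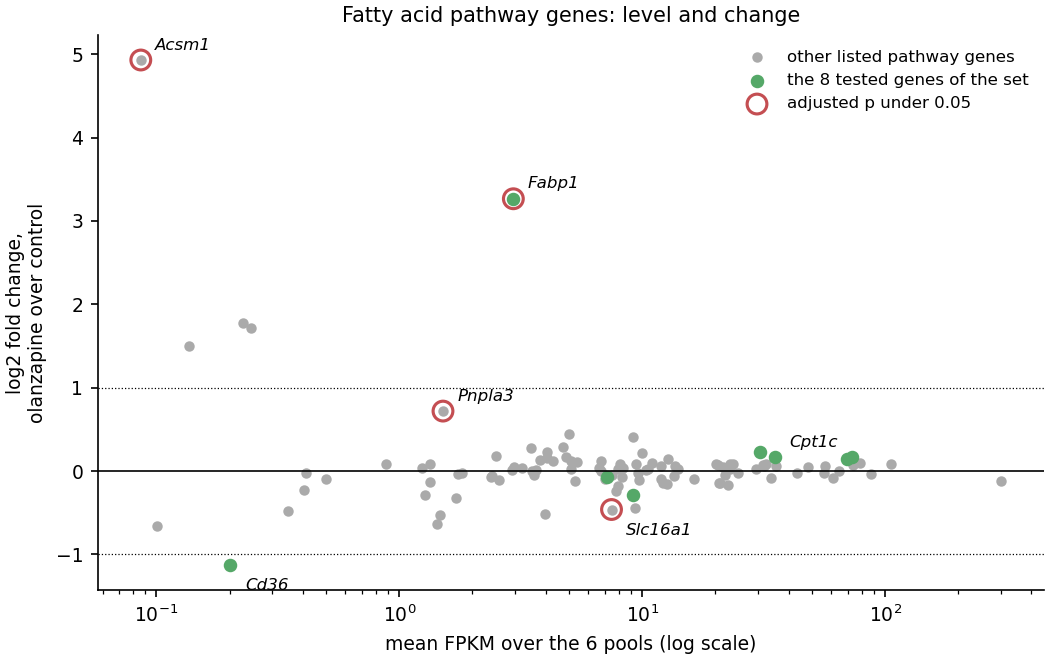
Log2 fold change (y axis, olanzapine over control) against mean FPKM over the 6 pools (x axis, log scale) for the tested pathway genes, with the 8 tested genes of the set in green and genes with an adjusted p under 0.05 ringed. Log2 fold changes above 1 occur at low level, in Fabp1 at 2.95 FPKM and in 4 genes under 1 FPKM, while the 91 other pathway genes at 1 FPKM or more lie between -0.63 and 0.72. Fabp1 and these 4 genes passed the count filter through their olanzapine pools, so their place above 1 is not independent of the filter. The point of Acsm1 is a fitted value that depends on the prior count.

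No gene of the core oxidation machinery passed. All 20 genes of mitochondrial beta-oxidation were tested, 0 were called, 0 had an unadjusted p under 0.05 by edgeR, and their log2 fold changes lay between -0.16 and 0.13. Among them, Etfb (electron transfer flavoprotein) stood at -0.02 and Echs1 (enoyl-CoA hydratase) at 0.08. All 17 peroxisomal genes were tested and 0 were called, and their log2 fold changes lay between -0.10 and 1.78. The 2 with an unadjusted p under 0.05, named after their values were seen, were Acaa1b and Abcd2. Acaa1b, a thiolase gene, had 5, 8 and 14 counts in the control pools, against 34, 38 and 20 under olanzapine, a log2 fold change of 1.78 (adjusted p = 0.132, edgeR). It is a close paralog of Acaa1a (0.09 in log2 fold change), and how reads were divided between them is not known. Abcd2, a peroxisomal transporter of very long-chain acyl-CoA, stood at 0.29 (adjusted p = 0.200, edgeR), and Phyh at 0.0007. In the carnitine shuttle, members included, 0 of 9 tested genes were called (3 at an unadjusted p under 0.05), and the log2 fold changes lay between -0.63 and 0.27. Crat, carnitine acetyltransferase, had 1991, 1982 and 1807 counts in the control pools, against 2194, 2270 and 2161 under olanzapine, a log2 fold change of 0.22 (adjusted p = 0.161, edgeR).

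In uptake, activation and acyl-CoA handling the most abundant genes also had small estimated changes. Of 9 tested uptake genes, Cd36 included, 0 were called (1 at an unadjusted p under 0.05), with Got2, a mitochondrial transaminase also described as plasma membrane FABP, at 0.09 and the transport protein Slc27a4 at 0.05 in log2 fold change. Of 10 tested acyl-CoA synthetases, Acsl1 included, Acsm1 was called, while Acsl3 stood at -0.08 and Acsbg1 at 0.06. Of 17 tested acyl-CoA binding and hydrolysis genes 0 were called (1 at an unadjusted p under 0.05), with Dbi, the acyl-CoA binding protein, at -0.12 and Acot7 at 0.09. Of 9 tested ketone body genes 0 were called by the full rule (2 at an unadjusted p under 0.05), with the ketolytic enzymes Oxct1 at -0.03 and Acat1 at 0.03. Of 14 tested release and lipid droplet genes 0 were called by the full rule (1 at an unadjusted p under 0.05), with the monoacylglycerol lipase Mgll at 0.06 and Plin3 at 0.06. DESeq2 likewise called 0 genes in each list in which edgeR called 0.

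Some genes that did not pass were picked out after their values were seen. Slc27a5, a bile acid-CoA synthetase of liver, had 6, 19 and 6 counts in the control pools, against 39, 42 and 20 under olanzapine (log2 fold change 1.72, adjusted p = 0.180, edgeR). Acaa1b, a peroxisomal thiolase abundant in liver, had 5, 8 and 14 against 34, 38 and 20 counts (1.78, adjusted p = 0.132, edgeR). Acot12, a cytosolic acetyl-CoA hydrolase of liver, had 12, 5 and 10 against 22, 18 and 36 counts (1.501, adjusted p = 0.185, edgeR). These 3 and Acsm1 are the 4 pathway genes outside the set with a log2 fold change above 1, all under 1 FPKM. All 4 fell under the count minimum of the filter in at least 1 control pool and passed it through their olanzapine pools. Their place in this group is thus not independent of the filter. Acacb, whose malonyl-CoA product inhibits Cpt1, had 490, 666 and 781 against 380, 567 and 284 counts (log2 fold change -0.63, adjusted p = 0.253, edgeR).

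Of the marker lists not described so far, edgeR and DESeq2 both called 0 of 8 oligodendrocyte markers (2 at an unadjusted p under 0.05 in edgeR) and 0 of 6 tested skeletal and heart muscle markers (1 at that level). The muscle list, read because Fabp3 and Cpt1b are muscle genes, summed to 38.9 to 41.2 CPM in the control pools, against 37.6 to 43.4 CPM under olanzapine.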

How the data were processed

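RNA-seq was made from 6 pools of LS tissue. According to the submitters' processing notes and the study's methods, the authors trimmed reads with fastp, aligned them with HISAT2 to mm10 and used HTSeq for the gene counts. They deposited these raw counts and FPKM values (fragments scaled to transcript length and library size) for 35415 genes. The strand setting and the treatment of reads matching several places are not given in the sources used here. Totals of 38208153 to 39868872 counts set the precision of low genes, and counting intervals cover counting error only.

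Counts were normalized with TMM and tested with edgeR 4.0.16 (R 4.3.3), quasi-likelihood F test, group as the only term, after filterByExpr (minimum count 10, minimum total 15). P-values were adjusted over all 17255 tested genes. The standard error is the size of the log2 fold change divided by the square root of F. Counting intervals are Clopper-Pearson intervals of the split of summed counts, scaled by library size. FPKM was used for levels and, as log2(FPKM + 1) or log2(FPKM + 0.1), in limma 3.58.1 as an alternative beside DESeq2 1.42.0, other normalizations, other filters, the replicate number as a block, and each pool left out. The fitting code was tested on simulated data. Positions came from GENCODE M21 and near-identical copies from blastn 2.17.0.

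The members and all lists were chosen with earlier results of these data known. Named genes are the members, other pathway genes with an adjusted p under 0.05, the 2 with the highest FPKM of each list, the first 3 and the called genes of marker lists, and the 3 genes most like Fabp1 in pattern. Names outside this rule are said to be chosen after their values were seen or accompany a member as a related gene (Fabp2, Cpt1b, Fabp6, Cdx1, Cdx2). The tables held 0 sample columns that were not used. Replicate libraries were compared and none was a duplicate. Results of some single genes are left out and not reported here.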

Additional observations from a re-analysis of the deposited data

How the results depend on the processing

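The number of members called, and of members with an adjusted p under 0.05, was 1 (Fabp1) with DESeq2, both other normalizations, both other count filters, all 3 limma fits and the choroid plexus score as a covariate (added after the data were seen). It was 0 with the replicate number as a block, where the log2 fold change of Fabp1 was 3.43 (adjusted p = 0.0648), and 0 to 1 when a pool was left out. The labels do not say whether same-numbered pools were paired. Same-numbered pools correlated at -0.0026, 0.062 and -0.25 in their deviations from the group means, and unlike-numbered pools at -0.35 to 0.34. So few pools cannot show whether a pairing was present. Among the other pathway genes, the called number (1 higher, Acsm1) was 0 without a count filter, with a mean of at least 50 counts, with the block, with limma at either pseudocount or unfiltered, with the choroid plexus score, and 0 in each of the 6 fits without a pool. The number higher by adjusted p alone (2) was 1 without a count filter, with 50 or more counts on average and in all 3 limma fits (Acsm1 in the unfiltered one, otherwise Pnpla3), 0 with the block or the choroid plexus score, and 0 in each of the 6 fits without a pool. The number lower by adjusted p alone (1, Slc16a1) was 0 with the block, in all 3 limma fits and with the choroid plexus score, and 0 to 1 without a pool. The fit of at least 50 counts does not test Acsm1, and neither does limma with a mean FPKM of at least 0.1; the cause of the other changes was not tested. The log2 fold change of Fabp1 lay between 2.07 and 3.72 over all 16 alternatives, the lowest on log2(FPKM + 1), whose pseudocount lowers the change of low genes. Fabp3 ranged from -0.046 without olanzapine pool 1, a reversal, to 0.28 without olanzapine pool 3, and no other member changed sign. Over all genes, the number called higher ran from 60 (limma on log2(FPKM + 1) without a filter) to 268 (DESeq2), beside 164. Depth limits the members with few reads: Fabp4 had 0 to 5 counts per pool, Cd36 6 to 59, and Fabp1 2 to 17 in the control pools.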
